A study of Mus musculus with 6 samples.

Results

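*Itgal*, *Itgb2*, *Itga4*, *Itgb1*, *Itgb7*, *Icam1*, *Icam2* and *Cd44* are 8 genes of leukocyte adhesion, chosen by name and looked up in the deposited table by gene identifier. All 8 were among the 27179 genes of the table, and all 8 were among the 11005 genes that passed the expression filter and were tested. Expression was measured by RNA-seq in NP-binding IgG1+ germinal center (GC) B cells sorted from mouse spleens. The cells were wild-type (WT) or deficient for the IL-21 receptor (*Il21r*-/-), and the mice were on the C57BL/6 background. All mice had been immunized with NP-KLH, the hapten NP coupled to a carrier protein, in alum. There was 1 library of each genotype on day 7, 1 on day 10 and 1 on day 14 after immunization, so the 6 libraries made 3 of each genotype. The sort took B220+ NP+ IgG1+ CD38- cells negative for CD138, IgM, IgD and Gr1, after enrichment of IgG1+ cells on magnetic beads. GEO's labels give 1 mouse for each library, whereas the methods describe several mice of each genotype from independent immunizations. A legend on the sort names 3 mice of each genotype on day 7. These sources differ, so the number of mice behind a library is not settled, and the immunization it came from is not given. The methods also say that all experiments except a time course of DNA labelling used irradiated recipients of WT or *Il21r*-/- bone marrow. On that wording these libraries came from such recipients, although the section on sorting names only *Il21r*-/- or WT mice. The p-values measure the spread between these libraries, and a day had no replicate within a genotype.

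Integrins are surface receptors made of an alpha and a beta chain, and they hold a moving cell to its neighbors and to the matrix. *Itgal* and *Itgb2* encode the chains of LFA-1, which binds the immunoglobulin superfamily ligands encoded by *Icam1* and *Icam2*, and *Itga4* encodes an alpha chain that pairs with the product of *Itgb1* to bind VCAM-1 and with that of *Itgb7* to bind the gut addressin MAdCAM-1. In the GC, B cells adhere to follicular dendritic cells and to T cells through these ligand and receptor pairs, while CD44 is a receptor for the matrix polymer hyaluronan.

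The 2 members that differed between genotypes over the 3 days were both beta chains that can pair with the alpha 4 chain, and they differed in opposite directions. Expression of *Itgb1* was higher in WT by 0.60 on the log2 scale (1.51-fold), and that of *Itgb7* was higher in *Il21r*-/- by 1.58-fold. *Itgb7* fell by 3.52-fold from day 7 to day 14 in the fitted trend, and *Itgb2* fell by 1.41-fold (4.43% of all genes passed the trend test). The other 5 genes passed neither test.

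The sequences before the start sites of *Itgb1* and *Itgb7* are shown because these are the members whose genotype difference passed the test with the linear day term. They are RefSeq sequences of build GRCm38.p6, they run 5′ to 3′ on the strand of the gene from -250 to -11 relative to its annotated start, and they hold no annotated exon of GENCODE (0 in each window). The capitals mark 2 short motifs on either strand, CACCC, the core of the sites of Krüppel-like factors, and the GC box GGGCGG, a site of Sp factors.
Itgb1 (chr8:128685404-128685643, plus strand): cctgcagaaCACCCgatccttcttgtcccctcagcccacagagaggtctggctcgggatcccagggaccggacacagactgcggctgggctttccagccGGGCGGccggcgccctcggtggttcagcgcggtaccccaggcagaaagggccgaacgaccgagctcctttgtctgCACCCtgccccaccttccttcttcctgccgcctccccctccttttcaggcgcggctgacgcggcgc
Itgb7 (chr15:102231946-102232185, minus strand): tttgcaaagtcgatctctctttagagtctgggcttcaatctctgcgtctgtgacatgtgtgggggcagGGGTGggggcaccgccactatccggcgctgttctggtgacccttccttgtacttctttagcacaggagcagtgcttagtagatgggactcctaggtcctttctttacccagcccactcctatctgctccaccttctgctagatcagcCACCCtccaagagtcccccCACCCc
The *Itgb1* window held CACCC at 2 places and GGGCGG at 1, and the *Itgb7* window held CACCC at 3 places and GGGCGG at 0. CACCC was in 50.6% and GGGCGG in 31.3% of the 32851 windows of the same length in the promoter set used, so neither motif sets these windows apart from others. That set does not cover every gene. The other 5 of the 7 motifs searched, the TATA box TATAAA, the E box CAGNTG, the ETS core CCGGAA, the AP-1 site TGANTCA and the kappaB site GGAAATTCC, were in neither window. A match is a description of the letters and shows no binding. The *Itgb7* window lies inside the RefSeq gene, which spans 102215994 to 102233405 of chromosome 15 and has another start further upstream. Promoter sequences of 5 of the 8 genes were in the table used, and those of *Itgal*, *Itgb2* and *Icam2* are not analysed here.

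The libraries held 21353438 to 27435124 counts on genes. Expression is given as CPM, the reads of a gene relative to the TMM-scaled size of its library. The targeted gene, *Il21r*, was lower in each library labelled *Il21r*-/- (105.8 to 127.6 CPM) than in each WT library (246.6 to 345.8 CPM), with reads left in all of them. All 14 GC B cell markers listed were detected and summed to 13960 to 18000 CPM, whereas *Cd3e* of T cells reached at most 0.0937 CPM and *Sdc1* of plasma cells at most 0.854 CPM, although other genes of those lists were higher and some differed between genotypes. The genes *Mpo*, *Col1a1*, *Col3a1*, *Pdgfra*, *Fap* and *Cxcl13* had 0 counts in every library.

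On the scale of CPM per kb of exon, which allows levels of different genes to be compared, *Icam2* was highest with a mean of 85.3 ± 16.7 (SD, n = 6 libraries) and *Itgb2* next with 72.2 ± 14.0. *Icam1* followed with 44.3 ± 2.27, *Itgal* with 31.0 ± 5.39, *Itgb1* with 26.95 ± 6.18 and *Cd44* with 20.7 ± 1.70. *Itgb7* with 9.63 ± 5.47 and *Itga4* with 4.83 ± 0.953 were lowest. Neighbors in this order were not separate in every case, since *Icam2* was above *Itgb2* in 3 of 6 libraries, *Itgal* above *Itgb1* in 4, *Itgb1* above *Cd44* in 5 and *Itgb7* above *Itga4* in 5. *Itgb2* was above *Icam1*, *Icam1* above *Itgal*, and *Cd44* above *Itgb7* in all 6. Both chains of LFA-1 and both of its ligands were thus above the alpha 4 chain in these levels of RNA, while the highest and the lowest library differed most for *Itgb7* (5.08-fold) and least for *Icam1* (1.14-fold).

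**Figure D1:**
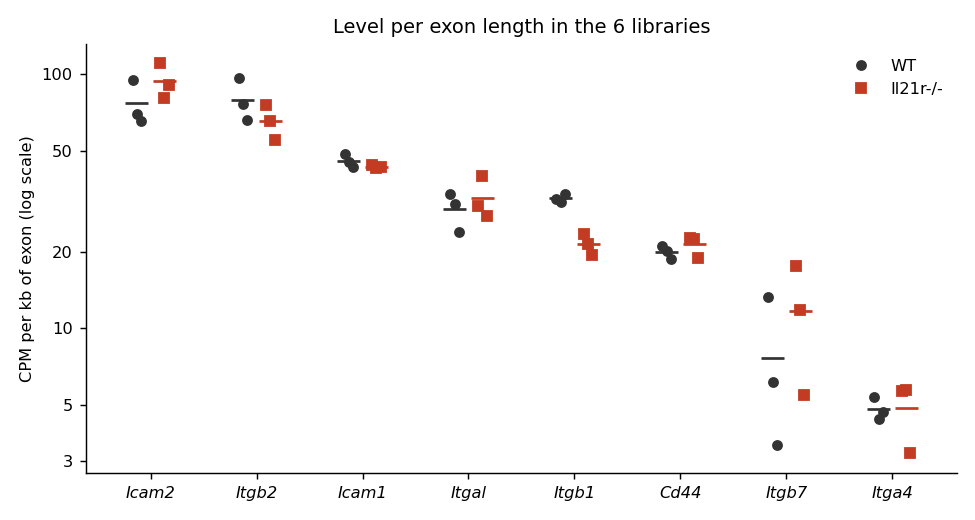
Level of the 8 genes as CPM per kb of exon (log axis), ordered by the mean over 6 libraries. Each point is 1 library (circles WT, squares Il21r-/-, 3 each) and each bar the mean of a genotype. The points of Itgb1 in WT lie above all of its points in Il21r-/-, Itgb7 has the widest range, and Icam1 stays between 42.6 and 48.6.

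The comparison of genotypes over all 3 days asks whether loss of IL-21 signaling goes with another level of these adhesion genes, and it is the only genotype comparison with replicates (3 libraries against 3). It used edgeR's quasi-likelihood test with a linear effect of day, and positive log2 fold changes mean higher in WT. Of the 8 genes, 2 passed an adjusted p of 0.05 (Benjamini-Hochberg over all 11005 genes), 1 in each direction, against 5.92% of all genes tested (1.4% higher in WT, 4.52% higher in *Il21r*-/-). The median log2 fold change of the 8 was -0.04, and that of all genes was -0.01. With day as a factor, a fit that pairs the libraries of a day, 4 of the 8 passed (*Itgb1*, *Itgb7*, *Itgb2* and *Icam2*), against 22.9% of all genes. In bulk samples, a change in the share of cells of one kind and a change in RNA per cell cannot be told apart.

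**Figure D2:**
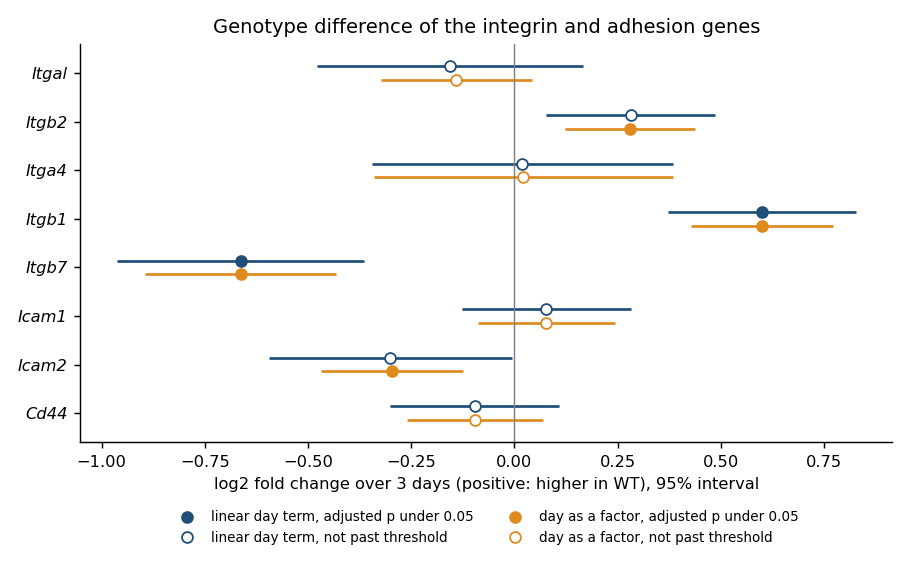
Genotype difference over 3 days (log2 fold change, positive when higher in WT) of the 8 genes with its 95% interval, from the fit with a linear day term (blue) and with day as a factor (orange). Filled points passed an adjusted p of 0.05. Itgb1 (0.60) and Itgb7 (-0.66) are filled in both fits, Itgb2 and Icam2 only with day as a factor.

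*Itgb1* (integrin beta 1, gene identifier 16412, chromosome 8 from 128685654 to 128733579) had 135.0, 132.0 and 141.1 CPM in WT on days 7, 10 and 14, and 98.3, 90.3 and 81.5 CPM in *Il21r*-/-. The WT libraries were nearly level over time and each was above every *Il21r*-/- library. *Itgb1* was the 1 gene of the 8 whose genotypes did not overlap, which held for 18.4% of all genes tested. The log2 fold change was 0.60 (standard error 0.10, 95% interval 0.37 to 0.83, edgeR quasi-likelihood adjusted p = 0.0112). Without the WT library of day 14 it was 0.51 with an adjusted p of 0.148, and without the *Il21r*-/- library of day 14 it was 0.53 with an adjusted p of 0.0883. The call was thus lost without either day 14 library. The share of all genes that passed also fell in these fits, to 1.2% without WT and 2.58% without *Il21r*-/-, from 5.92% with all 6 libraries. Day by day, each with 1 library per genotype, the log2 fold changes were 0.46, 0.55 and 0.79 on days 7, 10 and 14, and only that of day 14 passed the likelihood ratio test (adjusted p = 0.733, 0.166 and 0.00857). The difference between genotypes in slope over days did not pass the test (0.05 per day, standard error 0.04, adjusted p = 1.0), so the larger value on day 14 was not shown to differ from the others.

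*Itgb7* (integrin beta 7, gene identifier 16421) had 35.4, 16.4 and 9.27 CPM in WT on days 7, 10 and 14, and 47.1, 31.7 and 14.6 CPM in *Il21r*-/-. *Il21r*-/- was above WT on each of the 3 days, yet the genotypes overlapped, because both fell over time. The log2 fold change over 3 days was -0.66 (standard error 0.13, 95% interval -0.96 to -0.36, edgeR quasi-likelihood adjusted p = 0.0227). The call was lost without any 1 of 4 libraries, with an adjusted p of 0.0513 without *Il21r*-/- on day 7, 0.0973 without WT on day 10, 0.167 when WT of day 14 was left out and 0.0899 when *Il21r*-/- of day 14 was, while the log2 fold change stayed between -0.79 and -0.57. Day by day it was -0.41, -0.95 and -0.65, of which only day 10 passed the likelihood ratio test (adjusted p = 0.999, 0.0157 and 0.272), and without WT on day 14 in the dispersion estimate the day 10 adjusted p was 0.0653.

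The counts of the day-wise tests were thus 0 of 8 genes on day 7 (1.07% of all genes tested passed, and of the 8, 1 had an unadjusted p under 0.05), 1 on day 10 (3.1% of all genes) and 1 on day 14 (3.28%). With 1 library of each genotype on a day, these tests take their error from the scatter of all 6 libraries around the additive model. With the dispersion taken from the model with day as a factor, *Itgb1* also passed on day 10 (adjusted p = 0.0186), and *Itgb7* (0.0450) and *Icam2* (0.0469) on day 14. The share of all genes tested that passed was then 7.47% on day 10 and 9.59% on day 14. *Itgb1* also passed on day 10 with the linear day term kept in the day-wise fit (adjusted p = 0.0224), where 6.56% of all genes passed.

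**Figure D3:**
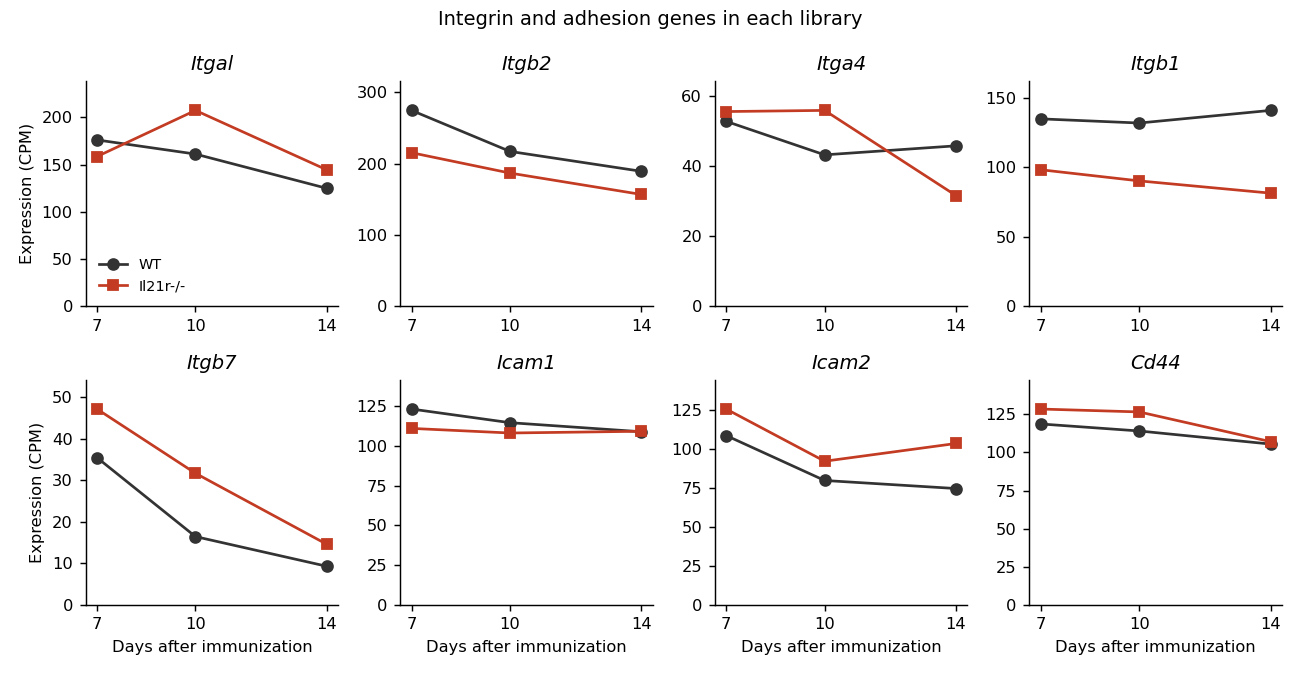
Expression of the 8 genes in each library (CPM, axis from 0) against days after immunization, with 1 library per genotype and day (black circles WT, red squares Il21r-/-, lines join libraries of a genotype). Itgb1 is higher in WT on each day, Itgb7 falls in both genotypes with Il21r-/- above WT, and the lines of Itgal, Itga4 and Icam1 cross.

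Among the genes of LFA-1, *Itgb2* (integrin beta 2, identifier 16414, chromosome 10 from 77530329 to 77565708) had 274.8, 217.2 and 189.3 CPM in WT and 215.4, 186.8 and 156.8 CPM in *Il21r*-/- on days 7, 10 and 14. WT was above *Il21r*-/- on each day, and the genotypes overlapped. The log2 fold change of 0.28 (standard error 0.09, 95% interval 0.08 to 0.49) did not pass with the linear day term (edgeR quasi-likelihood adjusted p = 0.115) and passed with day as a factor (0.28, adjusted p = 0.00796). Without the *Il21r*-/- library of day 10 it also passed with the linear term (adjusted p = 0.0452), where 19.7% of all genes tested passed.

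*Itgal* (integrin alpha L, identifier 16408, chromosome 7 from 127296139 to 127335137), the alpha chain of the same receptor, had 176.2, 161.2 and 124.9 CPM in WT and 158.6, 207.5 and 144.5 CPM in *Il21r*-/-. WT was the higher library on day 7 and the lower one on days 10 and 14. The log2 fold change was -0.16 (standard error 0.14, 95% interval -0.48 to 0.17, edgeR quasi-likelihood adjusted p = 0.579), and without the *Il21r*-/- library of day 10, the highest of the 6, it was 0.00335. *Itgal* lies 1.66 Mb from the targeted *Il21r* on the same chromosome, with 46 tested genes between them. None of the 5 tested genes nearest to it on either side passed the test over 3 days (*Zfp553*, *Zfp771*, *Dctpp1*, *Sephs2* and *Gm17511* before it, *Zfp768*, *Zfp747*, *Zfp764*, *9130019O22Rik* and *E430018J23Rik* after it), with edgeR quasi-likelihood adjusted p-values of 0.217 to 0.877 and log2 fold changes of -0.26 to 0.27.

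Of the 2 ligands of LFA-1, *Icam2* (identifier 15896, chromosome 11 from 106377656 to 106388139) had 108.6, 79.8 and 74.6 CPM in WT and 125.6, 92.1 and 103.5 CPM in *Il21r*-/-. *Il21r*-/- was above WT on each day, by a log2 fold change of -0.30 (standard error 0.13, 95% interval -0.59 to -0.01) that did not pass with the linear day term (edgeR quasi-likelihood adjusted p = 0.223) and passed with day as a factor (-0.30, adjusted p = 0.00986). It also passed with the linear term without the *Il21r*-/- library of day 10 (-0.41, adjusted p = 0.0120), where 19.7% of all genes tested passed. *Icam1* (identifier 15894, chromosome 9 from 21015940 to 21028814) was the most even of the 8 genes, with 123.3, 114.7 and 109.0 CPM in WT and 111.1, 108.2 and 109.3 CPM in *Il21r*-/-. Its log2 fold change was 0.08 (standard error 0.09, 95% interval -0.13 to 0.28, edgeR quasi-likelihood adjusted p = 0.676), which leaves room for differences of up to 0.28 in favor of WT.

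*Itga4* (integrin alpha 4, identifier 16401, chromosome 2 from 79255426 to 79333114) had 52.8, 43.3 and 45.8 CPM in WT and 55.6, 56.0 and 31.6 CPM in *Il21r*-/-. *Il21r*-/- was the higher library on days 7 and 10 and the lower on day 14, and the log2 fold change over 3 days was 0.02 (standard error 0.16, 95% interval -0.35 to 0.38, edgeR quasi-likelihood adjusted p = 0.964). Leaving out a day 14 library turned it to -0.18 (WT left out) or -0.19 (*Il21r*-/- left out). *Cd44* (identifier 12505, chromosome 2 from 102811141 to 102901669) had 118.7, 114.1 and 105.5 CPM in WT and 128.5, 126.6 and 107.1 CPM in *Il21r*-/-. *Il21r*-/- was slightly the higher on each day (log2 fold change -0.10, standard error 0.09, 95% interval -0.30 to 0.11, edgeR quasi-likelihood adjusted p = 0.593).

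Counted together, 5 of the 8 genes (*Itgb2*, *Itgb1*, *Itgb7*, *Icam2* and *Cd44*) had 1 direction of the genotype difference on all 3 days, and 53.3% of all genes tested did. Some of the counts may hold reads of other genes. *Itga4* overlaps *Cerkl*, *Icam1* overlaps the antisense gene *Gm47079* and *Cd44* overlaps the small nuclear RNA gene *Gm23731*, all on the opposite strand, and the strand setting of the counting is not stated. *Cerkl* held 160 counts over the 6 libraries, and the other two were not in the table.

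The day trend asks how these genes changed from day 7 to day 14 with both genotypes sharing a slope. All 8 fitted slopes were below 0, with a median of -0.05 per day on the log2 scale against 0.0006 over all genes tested. The 2 slopes that passed edgeR's quasi-likelihood test were those of *Itgb7* and *Itgb2*, both falling, while 4.43% of all genes passed (3.36% falling). The slope of *Itgb7* was -0.26 per day (standard error 0.02, adjusted p = 0.00465), or -1.82 over 7 days, and its day 14 libraries held 26.2% of the day 7 level in WT and 30.9% in *Il21r*-/-. Without WT on day 7 its adjusted p was 0.0663, and without WT on day 14 it was 0.0690. For *Itgb2* the slope was -0.07 per day (standard error 0.02, adjusted p = 0.0441), or -0.49 over 7 days, and the day 14 libraries held 68.9% and 72.8% of the day 7 level in WT and *Il21r*-/-. That call passed narrowly, since DESeq2's size factors gave an adjusted p of 0.0523. It held without *Il21r*-/- on day 10 and was lost without any other single library (on day 7, adjusted p = 0.388 for the WT library and 0.122 for the *Il21r*-/- library, on day 10, 0.0797 for WT, and on day 14, 0.393 for WT and 0.180 for *Il21r*-/-).

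The remaining slopes, as log2 change over 7 days, were -0.50 (standard error 0.20) for *Itga4*, -0.39 (0.16) for *Icam2*, -0.35 (0.17) for *Itgal*, -0.22 (0.11) for *Cd44*, -0.10 (0.11) for *Icam1* and -0.10 (0.12) for *Itgb1*. None of the 6 passed the test with the linear day term. With day as a factor, a test of any difference between days on 2 degrees of freedom, *Itgal* (adjusted p = 0.00693) and *Icam2* (0.00142) passed as well. Both were lower on day 14 than on day 7 in each genotype, and 36.1% of all genes tested passed this test. Without the *Il21r*-/- library of day 10, where 19.8% of all genes passed, the linear trend also passed for *Itga4* (adjusted p = 0.0355) and *Icam2* (0.0184). A lower level at each step, from day 7 to 10 and from day 10 to 14, was found in both genotypes for *Itgb2*, *Itgb7* and *Cd44* (3 of 8 genes, against 11.2% of all genes tested). The difference in slope between genotypes passed edgeR's quasi-likelihood test for 0 of the 8 genes and for 0 of all 11005 (0.0%), with 118 of all genes and 0 of the 8 at an unadjusted p under 0.05. DESeq2's Wald test and edgeR's likelihood ratio test called 0 genes too.

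Ratios of partner genes within a library do not depend on the scaling of the library. The ratio of *Itgb1* to *Itgb7*, in CPM per kb, was 2.43, 5.12 and 9.71 in WT and 1.33, 1.82 and 3.56 in *Il21r*-/- on days 7, 10 and 14. It was above 1 in every library, it was higher in WT on each day, and in both genotypes each later library had a higher ratio than the one before. The difference of the mean log2 ratios was 1.27 (WT 2.31 ± 1.0, *Il21r*-/- 1.04 ± 0.727, SD, n = 3 each, two-sided exact permutation p = 0.2, adjusted 0.25 over 5 ratios). An exact test of 3 against 3 libraries cannot go below p = 0.1, and with the libraries of a day as pairs it cannot go below 0.25, which is the value all 5 ratios had.

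The other 4 ratios each had 1 direction on all 3 days as well. *Itgal* to *Itgb2*, the 2 chains of LFA-1, was 0.351, 0.407 and 0.361 in WT and 0.403, 0.608 and 0.505 in *Il21r*-/- (log2 difference -0.42, exact permutation p = 0.2, adjusted 0.25). *Itga4* to *Itgb1* was 0.167, 0.1398 and 0.139 in WT and 0.241, 0.264 and 0.166 in *Il21r*-/- (-0.57, exact permutation p = 0.2, adjusted 0.25). The alpha 4 transcript was thus below that of beta 1 in every library, by more in WT. *Itga4* to *Itgb7* was 0.406, 0.716 and 1.35 in WT and 0.321, 0.481 and 0.590 in *Il21r*-/- (0.70, exact permutation p = 0.3, adjusted 0.3). On this scale per kb it was above 1 only in WT on day 14, while in CPM, without exon length, *Itga4* was above *Itgb7* in every library. *Icam1* to *Icam2* was 0.511, 0.647 and 0.657 in WT and 0.397, 0.528 and 0.475 in *Il21r*-/- (0.37, exact permutation p = 0.2, adjusted 0.25).

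**Figure D4:**
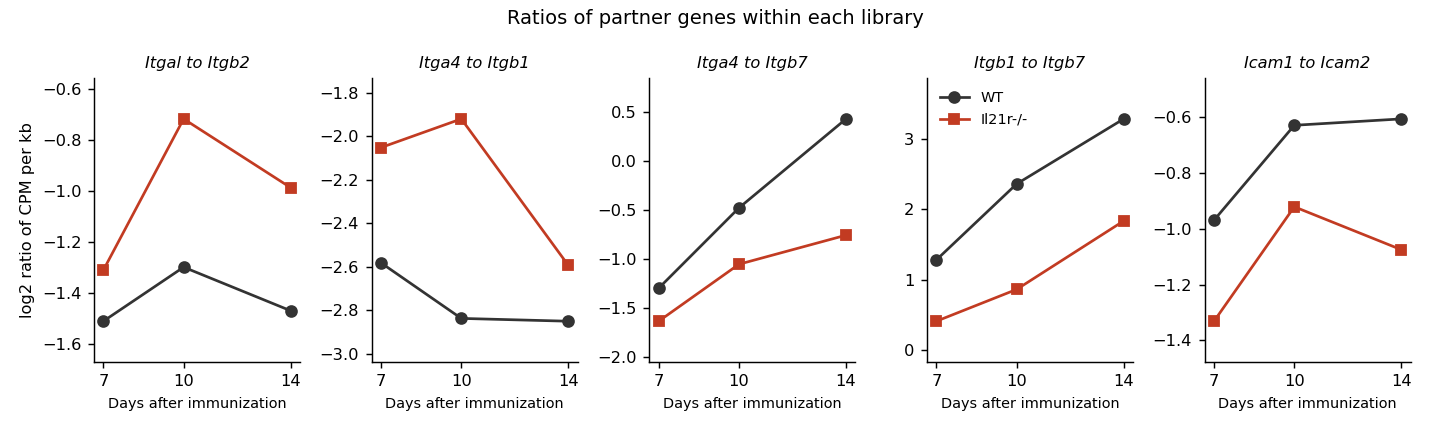
Ratio of CPM per kb of partner genes within each library (log2, each panel with its own axis) against days after immunization, 1 library per point (black circles WT, red squares Il21r-/-). The Itgb1 to Itgb7 ratio goes from 2.43 to 9.71 in WT and from 1.33 to 3.56 in Il21r-/- on the linear scale, and in each panel the 2 lines do not cross.

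The pattern over the 6 libraries that was most like that of each called gene, by Pearson correlation of log2 CPM among all genes tested, is given as a description, since the points share day, genotype and library. For *Itgb1* these were *Rab5a* (r = 0.993), *Gm15987* (0.990) and *Slc7a11* (0.987), for *Itgb7* *Sash3*, *Tbc1d10c* and *Ube2z* (each 0.998), and for *Itgb2* *Cxcr3* (0.994), *Dlst* (0.992) and *Ccdc71l* (0.990). The size of the differences was not alike, since *Sash3* ranged from 380.5 to 581.5 CPM where *Itgb7* ranged from 9.27 to 47.1 CPM. Among the 8 genes themselves, r over the 6 libraries was 0.932 for *Itgb7* and *Cd44* and 0.881 for *Itgb2* and *Icam1*, and between the chains of a receptor it was 0.314 for *Itgal* and *Itgb2*, 0.266 for *Itga4* and *Itgb1* and 0.674 for *Itga4* and *Itgb7*.

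Of 117 other genes of integrin function and leukocyte adhesion in 6 lists, 77 were tested, and 7 of them passed the genotype test over 3 days (9.09%, against 5.92% of all genes tested), 2 higher in WT and 5 higher in *Il21r*-/-. Over the 77 genes the median log2 fold change was -0.09. Of 21 other integrin chains only 4 were tested, and 1 passed, *Itgb3*, whose product pairs with the alpha V chain. It had 51.6, 59.9 and 54.6 CPM in WT and 30.9, 43.5 and 35.2 CPM in *Il21r*-/- on days 7, 10 and 14, so that, like *Itgb1*, it was higher in every WT library (log2 fold change 0.60, standard error 0.14, edgeR quasi-likelihood adjusted p = 0.0414). Its call was lost when the Y-chromosome, *Xist* and Ig variable genes were kept in the fit (adjusted p = 0.0501) and without any single library other than *Il21r*-/- on day 10 (0.0975 to 0.187). *Itgam* and *Itgax*, alpha chains that also pair with beta 2, were at most 1.22 and 0.442 CPM and were not tested.

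Among the ligands of integrins and CD44 and the enzymes of hyaluronan, 3 of 13 genes were tested. Of these, 0 passed edgeR's quasi-likelihood test over 3 days (5.92% of all genes did), with 1 at an unadjusted p under 0.05 and 0 called by DESeq2's Wald test. Of all 11005 genes, 2356 had an unadjusted p under 0.05 and 8.64% were called by the Wald test. With day as a factor 1 of the 3 passed, *Spp1*, the integrin and CD44 ligand osteopontin (-1.35, adjusted p = 0.00238). *Vcam1*, the ligand of the alpha 4 beta 1 pair, was at 0.457 to 5.42 CPM, and *Madcam1*, that of alpha 4 beta 7, at most 0.381 CPM. Of the inside-out activation genes, which carry signals to the integrin tails (talin, kindlins, RAP1 and its partners), 24 of 29 were tested. Of these 24, 0 passed the same quasi-likelihood test over 3 days, against 5.92% of all genes. At an unadjusted p under 0.05 there were 2, and DESeq2's Wald test called 0 (8.64% of all genes). Their log2 fold changes lay between -0.31 and 0.27 with a median of 0.005. With day as a factor, which pairs the libraries of a day, 4 of the 24 passed (22.9% of all genes did). *Rac2* (-0.31, adjusted p = 0.0056), *Rassf5* (-0.30, adjusted p = 0.0137) and *Rapgef1* (-0.26, adjusted p = 0.0258) were then higher in *Il21r*-/- and *Cytip* (0.27, adjusted p = 0.0337) higher in WT. In the trend 2 of the 24 passed as falling (3.36% of all genes did). These were *Rassf5* (-0.09 per day, edgeR quasi-likelihood adjusted p = 0.0257), a RAP1 partner, and *Cytip* (-0.19, adjusted p = 0.00611), a cytohesin-binding protein.

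Of the 24 tested focal adhesion and actin linkage genes (27 listed), 2 passed (5.92% of all genes did), both higher in *Il21r*-/-. *Zyx*, which encodes the focal adhesion protein zyxin, had 8.24, 3.70 and 3.37 CPM in WT and 22.2, 16.8 and 11.3 CPM in *Il21r*-/- (log2 fold change -1.75, standard error 0.19, edgeR quasi-likelihood adjusted p = 0.00151). *Rdx*, which encodes radixin, a linker of membrane proteins such as CD44 to actin, had 24.2, 16.6 and 11.3 CPM in WT and 36.1, 34.4 and 26.6 CPM in *Il21r*-/- (-0.95, 0.14, adjusted p = 0.00702). Every *Il21r*-/- library was above every WT library for both genes, *Zyx* passed without any single library and *Rdx* missed without WT on day 14 (adjusted p = 0.0948).

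Of 11 tested tetraspanins and membrane partners (12 listed), 2 passed (5.92% of all genes did), both tetraspanins higher in *Il21r*-/-. *Tspan32* had 37.5, 22.3 and 31.0 CPM in WT and 59.3, 45.5 and 57.1 CPM in *Il21r*-/- (-0.84, standard error 0.19, edgeR quasi-likelihood adjusted p = 0.0362), and *Tspan33* had 3.33, 3.90 and 6.74 CPM in WT and 5.02, 10.4 and 11.4 CPM in *Il21r*-/- (-0.95, 0.20, adjusted p = 0.0290). The call of *Tspan32* was lost without *Il21r*-/- on day 7 or 14 or WT on day 10 or 14 (adjusted p = 0.0663 to 0.199), and that of *Tspan33* without any WT library or *Il21r*-/- on day 14 (0.0535 to 0.184). Of the other leukocyte adhesion molecules (11 tested of 15), 2 passed, against the same 5.92% of all genes. *Pecam1*, a homophilic adhesion molecule, had 49.9, 32.8 and 24.0 CPM in WT and 65.5, 58.1 and 36.3 CPM in *Il21r*-/- (-0.60, 0.11, adjusted p = 0.0177), and *Emb*, the basigin family member embigin, was the gene higher in WT, with 11.3, 17.3 and 16.2 CPM against 7.33, 7.24 and 7.15 CPM (1.03, 0.17, adjusted p = 0.0107). *Pecam1* missed without WT on day 10 or 14 or *Il21r*-/- on day 14 (0.0710 to 0.167), and *Emb* missed without either day 14 library (0.0975 and 0.0513). Over all 6 lists, with day as a factor, 23 of the 77 genes passed, 6 of them among the tetraspanins and partners and 5 each among the linkage genes and the other adhesion molecules, where 22.9% of all genes tested passed. Without *Il21r*-/- on day 10, 21 of the 77 passed where 19.7% of all genes did, and without WT on day 10, 3 passed where 3.11% did. Leaving out a day 14 library gave 1 (WT, 1.2% of all genes) or 2 (*Il21r*-/-, 2.58%), so the counts moved with the share of all genes called.

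In the day trend, 12 of the 77 genes passed (15.6%, against 4.43% of all genes tested), 11 falling and 1 rising. The rising gene was *Tspan33* (0.15 per day, edgeR quasi-likelihood adjusted p = 0.0491). The falling genes included *Pecam1* (-0.14, adjusted p = 0.0133), *Zyx* (-0.16, adjusted p = 0.0303) and *Rdx* (-0.11, adjusted p = 0.0479). These were thus higher in *Il21r*-/- and falling with time, as was *Itgb7*. The count was 0 without WT on day 7, *Il21r*-/- on day 7 or WT on day 14, where the same test called 0, 36 and 5 of all 11005 genes. It was 3 without *Il21r*-/- on day 14 (1.29% of all genes) and 30 without *Il21r*-/- on day 10 (19.8% of all genes).

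**Figure D5:**
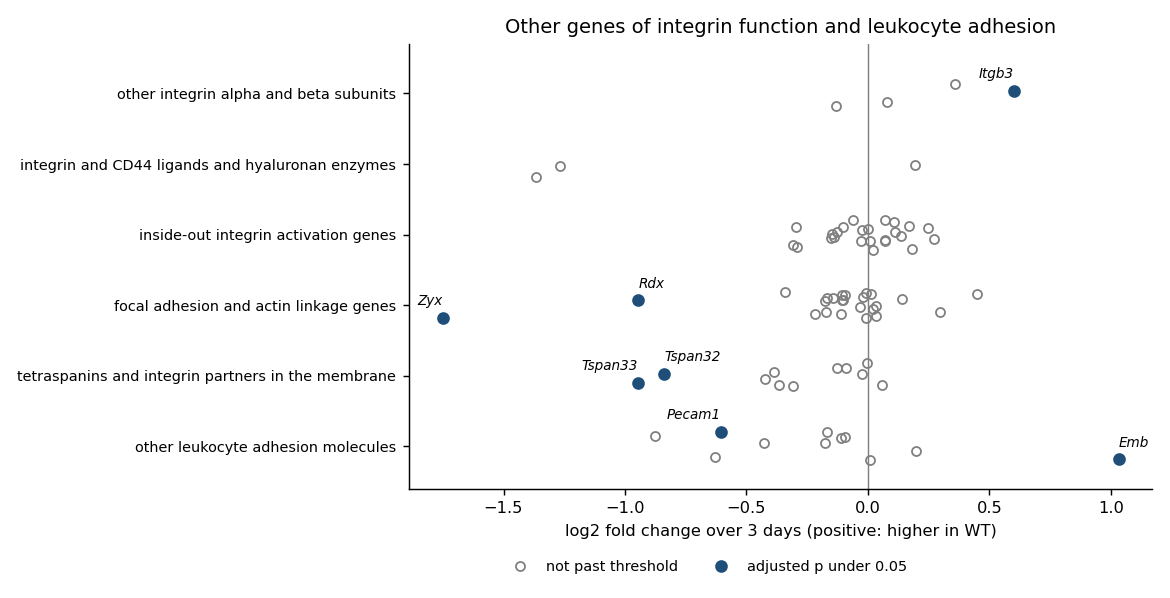
Genotype difference over 3 days (log2 fold change, positive when higher in WT) of the 77 tested genes in 6 lists of integrin function and leukocyte adhesion, 1 point per gene, with vertical scatter only to separate points. Filled and named points passed an adjusted p of 0.05 with the linear day term. Of the 7 filled points, Itgb3 and Emb lie right of 0 and the other 5 left of it, and none is among the inside-out activation genes.

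Markers of other B cell states moved with genotype and day. Listed genes of non-GC B cells summed to 1247, 770.3 and 565.2 CPM in WT and 1500, 1395 and 953.9 CPM in *Il21r*-/- on days 7, 10 and 14. Of 12 tested, 6 passed the genotype test as higher in *Il21r*-/- (4.52% of all genes did) and 1 as higher in WT (1.4%). In the day trend 7 passed as falling (3.36% of all genes). The sum was higher in *Il21r*-/- on each day and fell with day in both genotypes, as *Itgb7* did. Most of it was *Fcer2a* (154.2 to 807.6 CPM), higher in *Il21r*-/-, and *Ighm* (217.1 to 485.4 CPM), the gene higher in WT. *Klf2*, a Krüppel-like factor on that list, had 17.9, 11.1 and 8.38 CPM in WT and 38.8, 23.7 and 15.0 CPM in *Il21r*-/-. The GC light zone genes listed, which also include *Fcer2a* and *Gpr183*, summed to 1319 to 1821 CPM in WT and 2730 to 2882 CPM in *Il21r*-/-. Of these 17 genes, 9 passed the genotype test as higher in *Il21r*-/- (4.52% of all genes did) and 0 as higher in WT, while 1 had the higher mean in WT. Dark zone genes summed to 2955 to 3081 CPM in WT and 2780 to 2956 CPM in *Il21r*-/-. Of 10 tested, 1 passed, *Pax5*, which was higher in *Il21r*-/- (-0.67, edgeR quasi-likelihood adjusted p = 0.0387). Stromal and endothelial markers, which include *Pecam1*, summed to 163.2 to 202.0 CPM in WT and 185.4 to 234.5 CPM in *Il21r*-/-, most of it *Cr1l* (126.1 to 167.5 CPM). Only *Cr1l* and *Pecam1*, 2 of these 14 genes, passed the expression filter, and *Cdh5* of the same list reached at most 0.873 CPM. T cell markers summed to 88.6 to 123.1 CPM, nearly all of it *Lck*, myeloid markers to 7.32 to 19.6 CPM, erythroid and platelet markers to 5.22 to 33.8 CPM, and plasma cell markers to 2701 to 3713 CPM, most of it *Jchain*. Within these lists *Cd5* (-2.10, edgeR quasi-likelihood adjusted p = 0.00702) and *Tcf7* (-1.99, adjusted p = 0.00673) of the 3 tested T cell markers, *Cd68* (-0.62, adjusted p = 0.0449) of the 4 tested myeloid markers and *Xbp1* (-0.39, adjusted p = 0.0396) of the 6 tested plasma cell markers were higher in *Il21r*-/- over the 3 days, by these log2 fold changes. *Slpi* (1.48, adjusted p = 0.000573) and *Prdm1* (1.64, adjusted p = 0.0216) of the plasma cell list were higher in WT. *Cd5*, *Tcf7* and *Prdm1* were low, at most 3.45, 3.43 and 1.83 CPM, while *Slpi* had 148.8 to 189.1 CPM in WT and 57.8 to 67.2 CPM in *Il21r*-/-. The part of these markers and cell states in the differences of *Itgb1*, *Itgb7* or *Pecam1* was not tested.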

How the data were processed

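The data were 6 RNA-seq libraries. Single-end reads of 100 bp were aligned by the authors to mm10 (GRCm38) with Rsubread and summarized per gene by featureCounts on the RefSeq annotation, technical replicates being pooled. The deposited values are raw counts per gene, not normalized. GEO's processing notes also name CASAVA 1.8.2. Strand and multi-mapping settings are not given in the sources used here. Gene identifiers were matched to symbols with a RefSeq table of GRCm38.p6 (25275 of 27179), and the 1904 without a symbol, 1.58 to 2.25% of the counts, stayed in the library totals. The counts of the 6 single files were equal to the table.

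Following the study's methods, genes with an average log2 CPM under 0 were left out, as were Ig variable genes, *Xist* and genes of the Y chromosome (137 above the limit), and 11005 genes were fitted with TMM factors (0.958 to 1.04) in edgeR 4.0.16 with limma 3.58.1 and R 4.3.3. Dispersions came from genotype plus a linear effect of day (common dispersion 0.017, a biological coefficient of variation of 13.1%, 3 residual degrees of freedom). Quasi-likelihood tests gave the genotype effect over 3 days, the day trend and their interaction, and likelihood ratio tests the genotype effect on each day with a mean per day. P-values were adjusted by the Benjamini-Hochberg method over all genes tested, with a threshold of 0.05. CPM use the TMM-scaled library, and levels between genes are divided by exon length. Ratios were compared by exact permutation (Python 3.11.15). The procedure was tested on simulated counts. Alternatives were DESeq2 1.42.0, other filters and dispersions, day as a factor and leaving out each library. Libraries of a day deviated from their genotype means together (r = 0.64, 0.413 and 0.645 across genes on days 7, 10 and 14), so day pairs them. The study's labels give the day as the shared number.

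The 8 genes, the pathway and marker lists and the tests were chosen with earlier results of these data known. Named were all 8 genes, up to 4 called genes of each pathway list, the 5 tested genes on each side of *Itgal*, and the 3 genes most like each called gene. The other marker and pathway genes named were chosen after their values were seen. A gene of the lists is not reported here and is in none of their counts or sums.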

Additional observations from a re-analysis of the deposited data

How the results depend on the processing

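Over the 3 days, 4 of the 8 genes were called with day as a replicate block (day as a factor) instead of 2, and 0 to 4 when 1 library was left out. On day 10 the count was 2 with the linear day term kept and 2 with the dispersion from day as a factor instead of 1 (0 to 1 with 1 library left out), and on day 14 it was 3 with that dispersion. In the trend it was 1 with DESeq2's size factors, 4 with day as a factor and 0 to 4 with 1 library left out. Counts over all genes tested moved too, for the 3 days to 2519 with the block, 1193 with the likelihood ratio test, 991 with all genes with any count and 132 to 2165 with 1 library left out. For day 7 they moved to 303, for day 10 to 822 and for day 14 to 1055 with the dispersion from day as a factor, and for the trend to 3969 with day as a factor and 0 to 2177 with 1 library left out. For the listed pathway genes the count over 3 days was 13 with the likelihood ratio test (10.8% of all genes), 23 with the block (22.9%) and 1 to 21 with 1 library left out (1.2 to 19.7%). In the trend it was 22 with the likelihood ratio test (10.8% of all genes), 50 with day as a factor (36.1%) and 0 to 30 with 1 library left out (0.0 to 19.8%). The direction of some estimates turned. *Itgal* on day 7 was -0.0358 with the linear day term kept, and *Icam1* on day 14 was 0.0040 with at least 10 counts in every library and 0.00373 with the linear day term kept. With 1 library left out, log2 fold changes over 3 days ranged from -0.314 to 0.00335 for *Itgal* and -0.189 to 0.150 for *Itga4*, *Icam1* on day 14 from -0.00409 to 0.00663, and the slope of *Itgb1* from -0.0344 to 0.0010. Slope differences ranged from -0.190 to 0.0535 for *Itgal*, -0.0480 to 0.0237 for *Itgb2*, -0.0187 to 0.174 for *Itga4*, -0.126 to 0.0454 for *Itgb7*, -0.122 to 0.0854 for *Icam2* and -0.00593 to 0.0308 for *Cd44*. The cause was not tested. No ratio of partner genes changed direction, with pairing by day, without gene length or with 1 library left out. In the genotype test over 3 days, the block changed no call of the 8 genes other than those of *Itgb2* and *Icam2*. With 3 libraries of each genotype and none repeated within a day, small differences could be missed.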
